A study of Mus musculus with 32 samples.

Results

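CHD4 was mapped by chromatin immunoprecipitation and sequencing (ChIP-seq) in the mouse pre-B line B3, and 723 regions of the genome carried a CHD4 peak in every library. These regions were chosen by merging the 8 deposited CHD4 peak lists, joining peaks that overlapped or touched, and keeping each merged region that overlapped a peak in all 8 lists. They are 723 of 15355 merged CHD4 regions, or 4.71% of the regions and 14.7% of the bases covered. The B3 cells of every group carried a retroviral construct of Ikaros (IKZF1) with an HA tag and an ERt2 domain, from which GFP is also made, and were sorted for GFP. Groups differed only in the time since 500 nM 4-hydroxytamoxifen (4-OHT), which lets the fused protein enter the nucleus: 0 h, 30 min, 1 h and 2 h, with 2 replicates each for HA-Ikaros, CHD4 and H3K27ac, which gives 24 peak lists. The cells are a single transduced line, Ikaros was read through its HA tag, and the groups compared have no arm without the construct. The labels do not say that replicates came from separate cultures, so the tests over libraries measure the spread between these libraries, which may be technical.

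CHD4 is the ATPase that moves nucleosomes in the NuRD complex, which also holds the histone deacetylases HDAC1 and HDAC2. Ikaros is a zinc finger protein of lymphoid cells that binds short GGAA-like words, often with a preceding G, and is known to associate with NuRD. H3K27ac, acetylated lysine 27 of histone H3, marks active promoters and enhancers. In pre-B cells Ikaros is known for silencing genes of the pre-B cell receptor and of the cell cycle.

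The pre-B identity of the cells was checked by H3K27ac within 1 kb of a transcription start site (TSS). Of the 11 pre-B markers listed, 10 had such a peak in all 8 H3K27ac libraries, beside 9182 of all 21911 protein-coding genes. Among markers of other cells this held for 2 of 6 T cell genes (Cd3d and Gata3, with Cd3e, Cd4, Cd8a and Bcl11b in no library), for 0 of 6 myeloid genes, for 0 of 2 fibroblast genes, and for 2 of 3 erythroid genes (Hbb-bt and Klf1, with Gata1 in no library). The CHD4 lists held 2488 to 9593 peaks, the Ikaros lists 5373 to 14874 and the H3K27ac lists 21468 to 33664. Coverage recovered from the lists was 1.98 to 3.59 fragments per base for Ikaros and 3.74 to 4.33 for H3K27ac, and is unknown for CHD4.

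Sequences of 150 bases are shown for 6 of the regions, read from GRCm38 (mm10) on the plus strand, because they are the regions the later results name, and to show how far their DNA differs. The windows need not be bases called for CHD4 in every list. Each is centred on the highest Ikaros summit at 2 h, or on the region centre where Ikaros was never called. Capitals mark the words GGGAA and TTCCC, which are the same word on opposite strands and were searched on both. The first is from the region with the highest mean CHD4 rank of all (chr16:11687561-11687710, in an intron of Snx29), the second from the highest-ranked region with neither Ikaros nor H3K27ac (chr2:33934191-33934340, intergenic), and the next from the regions at the TSSs of Cd79a (chr7:24897195-24897344) and Igll1 (chr16:16864160-16864309). The last ones are from the Lef1 promoter region, where H3K27ac fell (chr3:131107220-131107369), and from the region with the largest rise of Ikaros rank (chr9:57278422-57278571, intergenic).
Snx29 intron: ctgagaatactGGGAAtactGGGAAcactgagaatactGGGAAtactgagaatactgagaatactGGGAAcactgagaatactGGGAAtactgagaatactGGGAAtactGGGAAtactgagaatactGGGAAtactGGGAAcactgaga
Near Gm13403: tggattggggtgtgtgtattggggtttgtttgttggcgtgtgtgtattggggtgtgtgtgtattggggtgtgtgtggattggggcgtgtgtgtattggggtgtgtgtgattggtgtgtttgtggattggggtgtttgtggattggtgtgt
Cd79a: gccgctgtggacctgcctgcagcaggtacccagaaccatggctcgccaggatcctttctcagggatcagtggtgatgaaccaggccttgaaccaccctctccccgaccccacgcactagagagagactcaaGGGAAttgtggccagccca
Igll1: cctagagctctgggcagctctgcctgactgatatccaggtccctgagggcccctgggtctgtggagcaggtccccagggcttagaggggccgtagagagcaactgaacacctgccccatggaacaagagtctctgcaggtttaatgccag
Lef1: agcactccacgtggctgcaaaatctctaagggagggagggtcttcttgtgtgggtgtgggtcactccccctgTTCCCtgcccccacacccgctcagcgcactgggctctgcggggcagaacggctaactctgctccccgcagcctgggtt
Near 1700017B05Rik: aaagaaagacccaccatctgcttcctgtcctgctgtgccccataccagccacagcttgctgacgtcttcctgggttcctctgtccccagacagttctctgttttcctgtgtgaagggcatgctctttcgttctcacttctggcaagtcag

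The Snx29 window is a tandem repeat with 9 copies of the word, the most of any of the 708 regions with an Ikaros summit at 2 h, where the next highest count was 4. The Near Gm13403 window is rich in TG steps and holds no copy. Cd79a and Lef1 hold 1 copy each, and Igll1 and the window near 1700017B05Rik none, which says only that these letters are absent from these 150 bases. The shorter GGAA, or TTCC on the other strand, was not marked and occurs in both of these windows. Of the 708 summit windows 49.6% held the word, against 37.3% and 36.3% of windows 1000 bp to the left and to the right. At the centres of all 15355 CHD4 regions the share was 37.2%, and at the centres of the 723 regions 38.9%.

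The number of lists in which a region was called fell quickly from 7607 regions in 1 list to 697 in 6 lists, then stayed level with 703 in 7 and 723 in all 8. Just outside the threshold, the 703 regions missing from 1 list had a median merged width of 2440 bp and a median of the mean CHD4 fold rank of 57.7, where the rank is the percentile of the fold of the best peak among the peaks of its list. Just inside, the 723 regions had a median width of 3220 bp (interquartile range 2279 to 4485) and a median rank of 64.9. Of the 703, 270 were missing only from the 0 h replicate 1 list and 156 only from the 2 h replicate 1 list, against 6 for the 2 h replicate 2 list. The first of these is the shortest list, with 2488 peaks, and the last the longest, with 9593, but the 2 h replicate 1 list, with 5523 peaks, is longer than most. Left out of the rule, the 0 h replicate 1 list raised the count from 723 to 993.

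**Figure D1:**
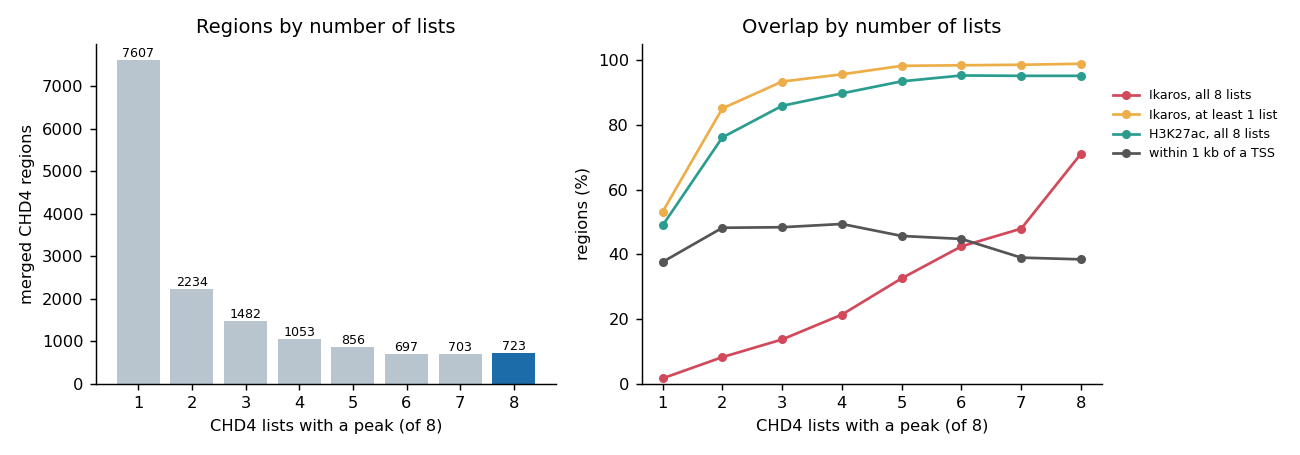
Left, merged CHD4 regions (y axis) by the number of the 8 CHD4 lists with a peak (x axis), with the 723 called in all 8 in blue. Right, the share of regions (%, y axis) in each of these classes with an Ikaros peak in all 8 or in at least 1 Ikaros list, with an H3K27ac peak in all 8 H3K27ac lists, or within 1 kb of a TSS. Ikaros in all 8 lists rises from 1.67% to 71.1%, and the share near a TSS is 37.6% and 38.4% at the ends.

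The CHD4 values of the 723 regions are given as a description, without a test, because CHD4 calls chose them. Their median fold over the local background was 3.65 and 3.58 at 0 h in replicates 1 and 2, 3.43 and 3.55 at 30 min, 3.82 and 3.62 at 1 h, and 3.28 and 3.43 at 2 h. The 2 h libraries were the lowest or equal lowest and the 1 h libraries among the highest. The median rank within the whole list was 61.8 and 73.3 at 0 h, 70.7 and 63.2 at 30 min, 73.8 and 65.9 at 1 h, and 70.8 and 78.2 at 2 h, so the replicates stood farthest apart at 0 h. The median number of bases called per region was 920 and 1762 at 0 h, 1397 and 1236 at 30 min, 1522 and 1458 at 1 h, and 1348 and 2238 at 2 h. It was lowest in the shortest list and highest in the longest. The regions took 34.3% of the peaks of the shortest list and 8.45% of the longest.

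**Figure D2:**
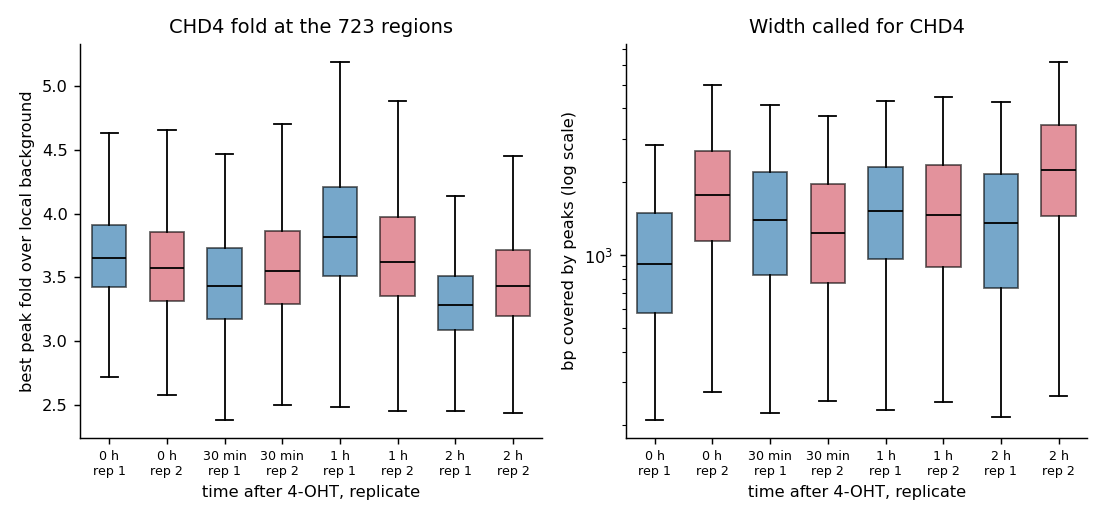
CHD4 at the 723 regions in each library (x axis, time and replicate, replicate 1 blue and replicate 2 red). Left, fold of the best CHD4 peak. Right, bases called for CHD4 (log scale). Boxes are quartiles with the median, whiskers reach 1.5 times the interquartile range. Median fold lies between 3.28 and 3.82, and median called bases between 920 and 2238.

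The 8 calls of a region did not always fall on the same bases. In 517 of the 723 regions some bases were called in all 8 lists, with a median of 342 bp, and in 206 no base was, so that those regions are held together by neighbouring peaks. Across the 723 regions the CHD4 folds of library pairs at the same time had Spearman rho of 0.301 to 0.383 (4 pairs), and those of pairs at different times 0.208 to 0.384 (24 pairs). The order of regions by fold was thus only loosely shared between any of the libraries. The −log10 q of the best peak per region had medians of 2.06 to 3.35 in the 8 lists, against 1.59 to 2.30 for whole lists, and only 33 of the 723 regions reached 3 in every list.

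A low-fold group was set apart among the 723 by a cut on CHD4 rank, chosen after the values were seen. Its low CHD4 folds follow from that cut. In 25 regions the mean CHD4 rank lay under 5 (highest 3.81, and the next region at 5.47), with median folds of 1.78 to 2.10 across libraries, against 3.30 to 3.83 for the other 698. Of the 33 regions with a −log10 q of at least 3 in all lists, 20 were in this low-fold group. The widest region of all, 38184 bp at chr9:3000077-3038260 over Gm10719 and neighbouring predicted genes, had CHD4 folds of 1.24 to 1.71 and was 96.3% repeat by the soft-masking of the genome. The gene Sfi1 on chromosome 11 held 2 of them, 13424 and 5804 bp wide, and the region over Gm26917 on chromosome 17, named after its values were seen, had folds of 1.52 to 2.26. The median repeat share was 51.3% in the 25 and 20.04% in the other 698. It was not high in all of the 25, with 45.7% and 21.6% at the Sfi1 regions and 4.28% at Gm26917. Ikaros and H3K27ac folds were low there too, with medians of 2.03 to 3.11 and of 2.44 to 3.07 across libraries, against 5.97 to 7.35 and 14.6 to 26.3 in the rest. The part that repeats have in these values was not tested. A further 11 regions lay on X or Y, among them chrX:170009851-170019045 at Gm21887 and chrY:90784837-90795382 at Gm47283, which took 2 of the 10 highest mean ranks (98.9 and 98.5).

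**Figure D3:**
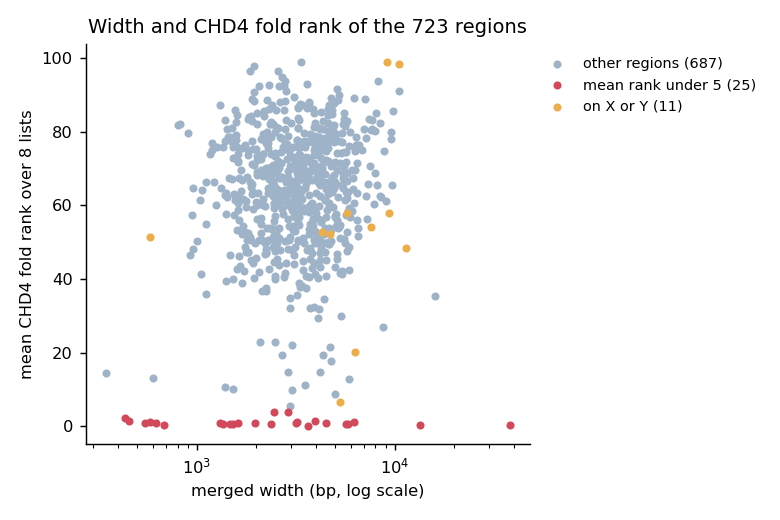
Mean CHD4 fold rank over the 8 lists (percentile, y axis) against merged width (bp, log x axis) for the 723 regions, 1 point each. The 25 regions of mean rank under 5 lie along the bottom at all widths, including the widest, and the 11 further regions on X or Y are spread over the whole range.

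Ikaros was called at nearly all of these regions. An Ikaros peak was present in all 8 Ikaros libraries at 514 of the 723 (71.1%), against 14.1% of all merged CHD4 regions and 47.9% of the 703 regions called for CHD4 in 7 lists. No Ikaros peak was found in any library at 8 regions (1.11%, background 26.6%). Of the 723, 61 (8.44%) gained Ikaros, with a peak in each 2 h library and no peak at 0 h, where the background was 12.6%, and 2 (0.277%) had the reverse, where it was 1.86%. Wide regions meet a peak more easily than narrow ones, and these backgrounds are not matched for width.

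By library, the share of the 723 regions with an Ikaros peak was 81.3% and 85.3% at 0 h, 92.0% and 84.1% at 30 min, 94.5% and 96.1% at 1 h, and 96.8% and 96.7% at 2 h. Both 1 h and both 2 h libraries lay above all 0 h and 30 min libraries. The share rose with time (Spearman rho 0.93, exact two-sided permutation p = 0.00317, adjusted p = 0.0254 over the 8 trends tested). Pearson r was 0.85 (exact permutation p = 0.00952, adjusted 0.054), and 0.88 without the 2 h libraries. The Ikaros lists grew at the same time, from 7822 and 9527 peaks at 0 h to 14225 and 14179 at 2 h, while the recovered coverage was highest at 0 h. With every Ikaros list cut to the shortest, the shares were 72.2% and 71.8% at 0 h and 84.1% to 85.5% in the 6 later libraries, and rho was 0.86 with an exact permutation adjusted p of 0.102. The call was also lost without any of 6 of the 8 Ikaros libraries (adjusted p up to 0.102) and without the 2 h replicate 1 CHD4 list in the rule (0.0825).

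The other 14632 merged CHD4 regions, called in 1 to 7 lists, were the comparison. Their Ikaros share was 30.4% and 36.2% at 0 h and 50.9% and 54.2% at 2 h. The share at the 723 regions was higher by 48.7 percentage points ± 6.44 (SD, n = 8 libraries), in 8 of 8 libraries (exact sign-flip test, two-sided p = 0.00781, adjusted p = 0.00781, the smallest this design allows). Against the 703 regions called in 7 lists the difference was 6.18 points (exact sign-flip adjusted p = 0.0104). With a 1000 bp window at each region centre, which sets all widths equal, the difference from all other regions was 38.5 points, and the same for H3K27ac was 18.01 points (exact sign-flip adjusted p = 0.00781 for each). With every CHD4 list cut to the shortest, which left 252 regions, the difference from all other regions was 30.5 points. The direction turned when CHD4 peaks were first limited to a −log10 q of at least 3. That rule left 33 regions, 20 of them in the low-fold group, and their Ikaros share minus that of other regions was −12.0 points (exact sign-flip adjusted p = 0.0156).

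**Figure D4:**
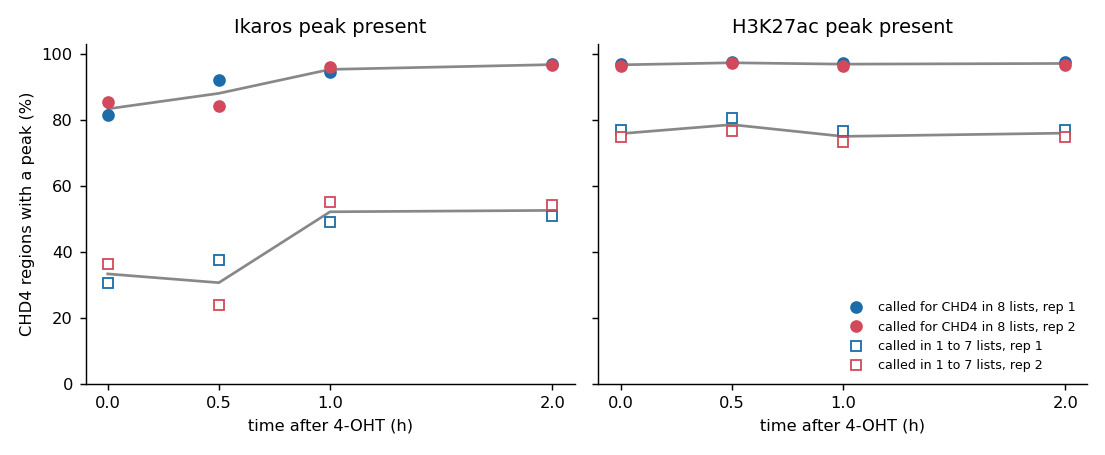
Share of CHD4 regions with a peak (%, y axis) by time after 4-OHT (h, x axis) for Ikaros (left) and H3K27ac (right). Filled circles are the 723 regions called for CHD4 in 8 lists, open squares the 14632 called in 1 to 7 lists, colours the replicates, and lines join the means. Ikaros rises from 81.3% and 85.3% to 96.8% and 96.7% in the circles, and H3K27ac stays between 96.4% and 97.5%.

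The strength of Ikaros was compared as the percentile rank of its fold within the 2305 Ikaros regions called in all 8 Ikaros lists, of which 533 lay on the 723 regions. Their mean rank was 54.6 and 55.2 at 0 h, 60.9 and 61.2 at 30 min, 58.8 and 59.7 at 1 h, and 59.7 and 59.7 at 2 h. All 6 later libraries lay above both 0 h libraries, with the highest values at 30 min, and the trend with time did not pass the test (rho 0.39, exact permutation p = 0.361, adjusted p = 0.413). Its size rested on single libraries, with rho at 0.09 without either Ikaros 0 h library and 0.61 without either Ikaros 30 min library. The mean rank was higher than on the other CHD4 regions by 11.1 ± 3.14 (SD, n = 8 libraries), in 8 of 8 libraries (exact sign-flip p = 0.00781, adjusted p = 0.00781). Against the regions called in 7 lists it was 5.38 (exact sign-flip adjusted p = 0.0104). By library the difference from all other regions was 5.85 and 6.67 at 0 h and 11.01 to 14.4 later, and its trend did not pass (rho 0.39, exact permutation adjusted p = 0.413).

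Promoter regions (within 1 kb of a TSS, 230 Ikaros regions) went from ranks of 53.6 and 53.6 at 0 h to 61.7 and 59.6 at 2 h. Distal regions (303 Ikaros regions) went from 55.3 and 56.5 to 58.3 and 59.8, with 61.3 and 64.2 at 30 min. Distal minus promoter was 1.73 and 2.94 at 0 h, 0.865 and 6.92 at 30 min, −1.51 and −2.35 at 1 h, and −3.43 and 0.169 at 2 h. Its trend did not pass after adjustment (Spearman rho −0.78, p = 0.0349 by exact permutation, 0.14 adjusted), and rho was −0.20 with CHD4 lists cut to the shortest and 0 at a −log10 q of at least 3.

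**Figure D5:**
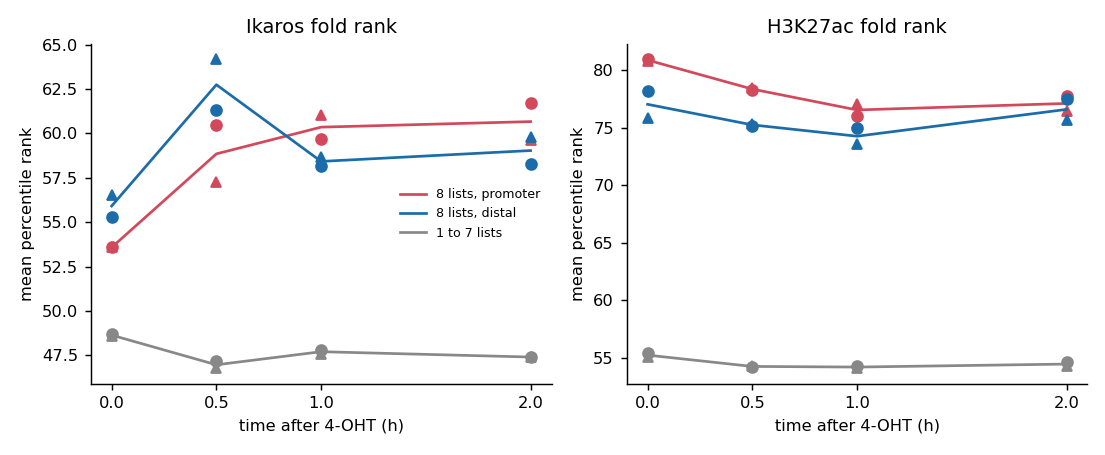
Mean percentile rank of the fold (y axis, not from 0) by time after 4-OHT (h, x axis) for Ikaros (left) and H3K27ac (right), within regions called in all 8 lists of that target. Red and blue are promoter and distal parts of the 723 CHD4 regions, grey the CHD4 regions called in 1 to 7 lists, circles and triangles replicates 1 and 2, lines the means. Ikaros on the 723 regions lies above grey in every library, as does H3K27ac.

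H3K27ac was present at nearly all of the regions at every time. It was called in all 8 libraries at 688 of 723 (95.2%, background 68.1% of merged CHD4 regions), and the 703 regions with 7 CHD4 lists had the same share, 95.2%. At 11 regions it was called in no library (1.52%, background 14.9%), and 4 of these also lacked Ikaros throughout. Only 3 regions (0.415%, background 1.55%) gained it in the same sense, and 2 (0.277%, background 1.63%) the reverse. The share per library was 96.4% to 97.5%, with no trend past the test (rho 0.25, exact permutation adjusted p = 0.559). It exceeded that at other CHD4 regions by 20.7 points ± 1.73 (SD, n = 8, exact sign-flip adjusted p = 0.00781), by 7.43 points with CHD4 lists cut to the shortest, but by only 0.050 points over the 703 regions called in 7 lists, where the exact test gave an adjusted p of 0.453. For the 33 regions left at a −log10 q of at least 3 the differences from other regions were −20.2 points in share and −31.5 in rank, and that of the Ikaros rank −34.6 (exact sign-flip adjusted p = 0.0104 for each).

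Within the 14715 regions called for H3K27ac in all 8 of its lists, the 668 on the 723 CHD4 regions had mean fold ranks of 79.3 and 77.9 at 0 h, 76.4 and 76.6 at 30 min, 75.4 and 74.98 at 1 h, and 77.6 and 76.0 at 2 h. The 30 min and 1 h libraries all lay below both 0 h libraries, and 2 h replicate 1 lay just below the lower 0 h value. The trend did not pass (rho −0.59, exact permutation p = 0.153, adjusted p = 0.306), and without 2 h replicate 1 it did (rho −0.86, adjusted p = 0.0423). With CHD4 lists cut to the shortest rho turned to 0.0488, and at a −log10 q of at least 3 to 0.68. The rank was higher than at other CHD4 regions by 22.2 ± 1.01 (SD, n = 8, in 8 of 8 libraries, exact sign-flip adjusted p = 0.00781). It was 14.7 with CHD4 lists cut to the shortest, 13.4 when ranks were taken over all peaks of a list, and 5.52 against the regions called in 7 lists (exact sign-flip adjusted p = 0.0104). Promoter regions had 80.9 and 80.8 at 0 h and 77.8 and 76.4 at 2 h, distal regions 78.2 and 75.9 and then 77.5 and 75.7. Distal minus promoter went from −2.73 and −4.96 to −0.261 and −0.776 (rho 0.68, exact permutation p = 0.0825, adjusted p = 0.22).

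Movement of single regions between 0 h and 2 h was counted where both 2 h values lay above, or both below, both 0 h values. For the CHD4 rank within the 723 regions, 128 rose (17.7%) and 136 fell (18.8%). Among the 1103 CHD4 regions called in all 0 h and 2 h lists the shares were 18% and 18.7%. The 723 are part of those 1103, so close shares are partly built in and cannot show that they moved like other regions. For Ikaros, 157 of the 500 regions with a rank moved up (31.4%, background 25.6%) and 92 down (18.4%, background 23.9%). For H3K27ac, 139 of 688 moved up (20.2%, background 23.8%) and 206 down (29.9%, background 23.1%). A CHD4 region took the highest rank of the Ikaros or H3K27ac regions on it, and neighbouring CHD4 regions could share the same such region. These backgrounds count each Ikaros or H3K27ac region by itself and include those on the 723, so the units are unlike. With 2 libraries per time, no single region has a test of its own.

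Serpinf1, which codes for a secreted serpin and is among the fast-repressed genes the study chose on these cells, had a region over its TSS (chr11:75413699-75417035) that moved down in all 3 targets. No base of it was called for CHD4 in all 8 lists. Its CHD4 rank within the 723 was 84.2 and 86.2 at 0 h and 17.9 and 16.1 at 2 h. Its H3K27ac fold was 38.2 and 23.9 at 0 h and 8.96 and 9.39 at 2 h, and the rank of that fold 97.9 and 91.9 and then 53.6 and 58.7. Its Ikaros fold was 27.3 and 20.1 at 0 h and 8.20 and 5.49 at 2 h, and the rank of that fold 99.8 and 98.2 and then 90.04 and 31.5, so Ikaros was already called there before 4-OHT. In each target the 2 h libraries lay below both 0 h libraries. Genes of that list differed in CHD4. The CHD4 rank was 75.9 and 50 at 0 h and 50.1 and 88.2 at 2 h at Igll1, and 68.5 and 35.1 and then 82.5 and 33.8 at Lgals9, both with overlap, and in the region 8505 bp from the TSS of Plekho2 it was 18.3 and 56.4 and then 91.9 and 71.4. In the region 13628 bp from the TSS of Endod1 it was 98.1 and 73.5 and then 22.6 and 54.7. Among the other large CHD4 falls, the region 113 bp from the TSS of the predicted gene Gm18709 and 9208 bp from that of Irf8, a B-lineage transcription factor, went from ranks of 94.4 and 88.3 to 23.0 and 14.0. The 30 min and 1 h values there, 22.6 and 42.0 and then 70.5 and 85.8, followed no single direction. The 2 largest CHD4 falls of all were on Y.

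The largest CHD4 rises included the region over the TSS of Def6, a guanine nucleotide exchange factor of lymphocytes (chr17:28203876-28208306), with ranks of 31.6 and 24.4 at 0 h and 98.8 and 91.6 at 2 h. No base of it was called in all 8 lists. Ikaros rose most at the region near 1700017B05Rik shown above, where its rank was 9.33 and 2.73 at 0 h, 52.9 and 27.6 at 30 min, 70.4 and 72.2 at 1 h, and 71.0 and 85.1 at 2 h. All later libraries lay above 0 h there. At the TSS of Ifngr2, a subunit of the interferon gamma receptor, the Ikaros rank was 3.41 and 22.7 at 0 h and 88.2 and 76.4 at 2 h. Among regions at a TSS it fell most at Rcc2, a regulator of chromosome condensation, from 70.0 and 79.5 to 10.5 and 0.93, and at Tgfb1, a cytokine gene, from 81.3 and 62.8 to 8.33 and 3.95.

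H3K27ac fell most 11518 bp from the TSS of Ski, a corepressor of TGF-beta signalling, where its rank was 87.8 and 69.7 at 0 h, 53.8 and 57.8 at 30 min, 30.5 and 7.58 at 1 h, and 20.5 and 3.80 at 2 h. The Lef1 region, which covers the TSS of this transcription factor gene, went from 90.4 and 92.0 to 29.1 and 49.4, with an H3K27ac fold of 27.7 and 24.0 at 0 h and 6.16 and 8.19 at 2 h. Its CHD4 fold was 4.00 and 3.90 at 0 h and 3.54 and 4.13 at 2 h. H3K27ac rose most 1961 bp from Arl5c, from 41.9 and 35.4 to 95.4 and 94.4, and 3022 bp from Malat1, a long noncoding RNA gene, from 5.88 and 3.63 to 62.2 and 56.8. Ikaros was called in 5 and 4 of the 8 libraries at these last regions, against 8 of 8 at Ski and Lef1. The latter held for 71.1% of the 723 regions.

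The movements of CHD4 and Ikaros from 0 h to 2 h went together weakly over 500 regions, with a Spearman rho of 0.27, and those of CHD4 and H3K27ac over 688 regions with 0.252. Neighbouring CHD4 regions on the same H3K27ac region share its movement, so the 688 are not all separate values. Both correlations differed by replicate number. CHD4 and Ikaros taken from the same replicate number gave 0.251 and 0.286, and taken from opposite numbers 0.047 and 0.052. The same held for H3K27ac, at 0.239 and 0.271 against 0.086 and 0.058. At a given time, the gap between replicates 1 and 2 in CHD4 rank correlated with the gap in Ikaros rank at 0.238 to 0.382, and across different times at −0.056 to 0.106. What libraries with the same number and time share was not tested. The CHD4 movement of replicate 1 correlated with that of replicate 2 at 0.124, against 0.347 for Ikaros and 0.354 for H3K27ac. Ikaros and H3K27ac movements had a rho of 0.215 over 486 regions, with 0.199 in replicate 1 and 0.223 in replicate 2.

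The 61 regions that gained Ikaros had a mean CHD4 rank within the 723 of 38.3 and 33.7 at 0 h and of 45.7 and 43.4 at 2 h. Both 2 h means lay above both 0 h means, though the 1 h replicate 2 mean, 41.0, was already close to them. In the 514 regions with Ikaros in all 8 libraries it was 52.9 and 53.6 at 0 h and 51.7 and 52.4 at 2 h. CHD4 values chose the regions, so these are a description.

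By position, 278 of the 723 regions (38.5%) lay within 1 kb of a TSS and 445 were distal, with a median distance of 9374 bp to the nearest TSS. Of the other CHD4 regions 42.1% lay within 1 kb, and of those called in 7 lists 39.0%. Wide regions reach a TSS more easily, and with a fixed 1000 bp window at each centre the shares were 29.6% and 42.3%. In regions called in 7 lists the window gave 33.3%. A TSS inside a wide region can lie outside that window. The region centre was in an intron in 311 (43.0%, beside 44.6% of all merged CHD4 regions), in an exon outside a UTR in 48 (6.64%, beside 7.96%), in a UTR in 24 (3.32%, beside 6.84%) and between genes in 340 (47.0%, beside 40.6%). Of the regions called in 7 lists 41.5% had the centre between genes. Promoter regions of the 723 had a median width of 3654 bp and distal ones 3017 bp. Ikaros was in all 8 libraries at 78.4% of promoter and 66.5% of distal regions. Of the 723, 307 lay within 50000 bp of another of the set, a share not compared with other regions. The largest groups were 6 regions on Y around Gm47283 and 6 on chromosome 5 at Katnal1 and Hmgb1. There were 36 groups of at least 3 regions. Ebf1, an early B-lineage transcription factor, held 4, as did other places such as Sfi1, Sept9 and Pde4d. Mef2c and Fli1 had 3 each, as did Gsdmc, Hdhd5 and Snx5, and 3 lay around Myb and its neighbour Hbs1l.

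Genes of the B cell receptor were among those with a region at the TSS. A region lay within 1 kb of a TSS of 10 of 25 listed genes of pre-B and B cell receptor signalling (40%), against 1.06% of all 21911 protein-coding genes and 2.36% of the 9182 with H3K27ac at the TSS in all 8 libraries, and the other 15 listed had none. A CHD4 region of any kind, called in at least 1 list, lay at the TSS of 22 of the 25 (88%), beside 24.4% of all protein-coding genes and 54.5% of those with H3K27ac. Cd79a, the Ig-alpha signalling chain of the receptor, had CHD4 folds of 3.88 and 3.56 at 0 h, 3.49 and 3.96 at 30 min, 4.63 and 4.24 at 1 h, and 4.04 and 3.93 at 2 h, with both 1 h libraries highest. Its Ikaros fold was 4.53 and 7.36 at 0 h and 7.64 and 12.1 at 2 h, so both 2 h values lay above both 0 h values, the nearest pair by little. Igll1, the lambda5 part of the surrogate light chain, had CHD4 folds of 3.92 and 3.58 at 0 h and 3.28 and 4.01 at 2 h, and its groups overlapped. Its H3K27ac fold was 57.9 and 29.5 at 0 h, 49.2 and 30.2 at 30 min, 27.5 and 20.9 at 1 h, and 19.1 and 19.6 at 2 h. The median H3K27ac fold of the 698 regions outside the low-fold group also differed between libraries, from 14.6 to 26.3, and the H3K27ac rank of Igll1 went only from 99.9 and 96.8 at 0 h to 90.7 and 92.5 at 2 h.

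Plcg2, the phospholipase downstream of the receptor, had a region of 8001 bp with CHD4 folds of 3.90 and 3.61 at 0 h and 3.25 and 3.32 at 2 h. Pik3cd, the catalytic subunit of PI3K delta, had 9613 bp and folds of 3.27 and 4.22, then 3.43 and 4.21, which overlapped. Cd72, an inhibitory coreceptor, had 3.60 and 3.75, then 3.73 and 3.46, which overlapped too. In CHD4 rank within the 723, Plcg2 had 73.8 and 54.2 at 0 h and 44.6 and 38.7 at 2 h, without overlap. Lyn, a kinase of the receptor that was named after its values were seen, had 39.2 and 84.4 and then 46.7 and 21.1, with overlap. Blnk, Cd79b, Dok3 and Pik3ap1 were the other members with a region.

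Of 40 B-lineage transcription factors 7 had a region within 1 kb (17.5%): Lef1, Runx1, Fli1, Pax5, Pou2af1, Bach2 and Mef2c. Beside this stand 1.06% of all protein-coding genes and 2.36% of those with H3K27ac in all 8 libraries. Within 20 kb of a TSS 14 of the 40 had a region (35%), which adds among others Stat5a, Irf8, Ets1, Ebf1 and Ikzf1 itself. This held for 3.12% of all protein-coding genes. Runx1 had CHD4 folds of 3.59 and 3.63 at 0 h and 3.68 and 3.25 at 2 h, while its H3K27ac rank was 85.6 and 87.8 and then 71.7 and 36.1. Of 13 adhesion genes 3 had a region at the TSS (23.1%, beside the same 1.06% and 2.36%): Selplg, which codes for the P-selectin ligand PSGL-1, Pecam1 and Icam1. Of 20 fast-repressed genes named by the study on these cells, so no independent list, 3 did (15%, beside 1.06% of all protein-coding genes): Igll1, Lgals9 and Serpinf1. Within 20 kb it was 7 (35%), beside 3.12%. A CHD4 region of any kind lay at the TSS of 80% of the transcription factors, 53.8% of the adhesion genes and 70% of the fast-repressed genes. This held for 24.4% of all protein-coding genes and 54.5% of those with H3K27ac.

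Lists of general cell functions had few or no regions at the TSS. Of 79 cytosolic ribosomal protein genes 1 had a region at the TSS (Rpl11, 1.27% of the list), and of 24 cell cycle genes, 15 NuRD subunits and 67 replication-dependent histone genes none did. The shares beside these are 1.06% of all protein-coding genes and 2.36% of those with H3K27ac in all 8 libraries, at which lists of these sizes hold few or none. Within 20 kb of a TSS the counts were 4 of 79 (5.06%), 2 of 24 (8.33%), 0 of 15 and 2 of 67 (2.99%), beside 3.12% of all protein-coding genes and 5.86% of those with H3K27ac. These lists were described by counts, with no test.

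Apart from those on X and Y, the highest mean CHD4 ranks belonged to the Snx29 intron region (99.0), a region in Pax7 centred in a UTR (98.0), regions 1071 bp from Ints1, an Integrator subunit gene (96.6), and over Rfwd3, a ubiquitin ligase gene (96.6). Rabepk, Hes3, Osgin1 and Ggnbp1 followed with 94.9, 93.9, 93.9 and 93.1. The Snx29 region had Ikaros folds of 26.0 and 40.4 at 0 h and 11.4 and 15.4 at 2 h, with ranks of 98.4 to 99.98 throughout, and H3K27ac in no library. Its CHD4 fold was 4.54 and 6.63 at 0 h and 3.81 and 5.17 at 2 h, so the groups overlapped. The region near Gm13403, with neither mark, had CHD4 folds of 4.70 and 7.20 at 0 h, 3.39 and 5.15 at 30 min, 9.83 and 8.31 at 1 h, and 3.31 and 7.33 at 2 h.

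In base composition, the 500 bp at the centres of distal regions held a median of 48.8% G and C, against 44.8% in other distal CHD4 regions and 48.4% in distal regions called in 7 lists. Promoter centres held 51.6% and 52.2% respectively for the 723 and the other regions, with CpG observed over expected of 0.300 and 0.513, and of 0.338 in promoter regions called in 7 lists. At 2 h, the highest Ikaros summit lay a median of 432 bp from the centre of its region. In the 504 regions with both a summit and bases called in all 8 CHD4 lists, 56.5% of the summits fell in the longest such stretch, which made up 14.2% of the bases of these regions.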

How the data were processed

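Peak lists from 8 CHD4, 8 Ikaros and 8 H3K27ac ChIP-seq libraries were analysed, and the 8 inputs were not analysed here. The authors aligned reads to mm10 with Bowtie2 2.4.2 and called peaks with MACS2 2.2.7.1, in broad mode for CHD4. A blacklist is named for signal tracks. Its use on peaks, the settings for 30 min and the pairing of inputs are not given in the sources used here. The deposited score was not used. The deposited fold (a ratio of ChIP to local background) was used as ranks in every test and printed as such for single regions. The deposited −log10 p and −log10 q were used to filter peaks and recover depth. Summit offsets are per the file headers' format. No counts of reads were given, so no count model was run.

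Lists were merged in Python 3.11.15 (pandas 2.3.3, scipy 1.17.1) and TSSs taken from GENCODE M21 on GRCm38, with an overlap of 1 bp. Trends with time used exact permutation of all 40320 pairings, and differences all 256 sign patterns, with Benjamini-Hochberg adjustment over 8 and 4. The code recovered planted regions in simulated lists. The regions and gene lists were chosen with earlier results of these data known. Regions named are those with the highest CHD4 rank or width, the largest rank movements, no Ikaros or H3K27ac peak, or the highest rank in a gene list. Gm26917, Lyn, Plekho2 and Endod1 were named after their values were seen. Alternatives changed thresholds, list lengths, overlap, windows, libraries and the rule.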

Additional observations from a re-analysis of the deposited data

How the results depend on the processing

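CHD4 depth is unknown, so the length of the CHD4 lists limits which regions could reach all 8. The number of regions was 252 with CHD4 lists cut to the shortest, 33 with a −log10 q of at least 3 and 1426 with at least 7 lists, and 729 to 993 without each list in turn. The mean over libraries of the median CHD4 rank was 79.2 with cut lists and 1.09 at the stricter q. The rise of the Ikaros share did not pass with a 1000 bp window at the centre (rho 0.88), at the stricter q (0.81), with Ikaros lists cut (0.86) or with at least 7 CHD4 lists (0.83). Without single libraries or a replicate its rho was 0.80 to 1.00. With the replicate block, times were permuted within each replicate number, and the exact permutation adjusted p was 0.111 for the same rho of 0.93, the only call the block changed. Same-numbered libraries of a target did not deviate together (0 of 18 correlations over 0.1).

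The trend of the H3K27ac share turned to −0.0745 with the window and −0.32 with cut lists, and was −0.0185 to 0.63 without single libraries or a replicate. That of the H3K27ac rank turned to 0.0488 with CHD4 lists cut and 0.68 at the stricter q, and its difference from other regions to 0.78 and 0.83. Without single libraries or replicates they ran from −0.86, without H3K27ac 2 h replicate 1, where both passed, to −0.39 and −0.18. At the stricter q the differences in Ikaros share, H3K27ac share, Ikaros rank and H3K27ac rank all reversed, to −12.0, −20.2, −34.6 and −31.5. Against regions called in 7 lists the H3K27ac share differed by 0.050. Without single libraries or replicates these 4 differences were 43.2 to 49.8, 15.6 to 21.7, 10.5 to 11.8 and 20.1 to 22.6, and with 1 replicate the test could not go below 0.125. Leaving out regions on X or Y or at least 90% repeat, or those of mean CHD4 rank under 5, both chosen after seeing the data, ended no call.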
